A study of Mus musculus with 36 samples.

Results

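The cerebral cortex of Hcrt/Orexin-ataxin-3 transgenic mice was compared with the cortex of wild-type mice from the same line. Of the 36 libraries in the series, 6 belong to the comparison, 3 transgenic and 3 wild type, and they were chosen by tissue and genotype alone. Transgenic mice (tg/+ in the sample titles) and wild types (+/+) were both labelled C57BL/6. No age or treatment is given, and nothing says that a library stands for a separate animal, so a p-value here speaks only of how far these samples vary, which may be technical. In this model the Hcrt cells are ablated by an ataxin-3 transgene, as the design text states. The other libraries are the hypothalamus and brainstem of the same line, and all 3 tissues of an Hcrt knockout line (an engineered loss of the peptide gene) with its own wild type.

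Hypocretin (orexin) is a neuropeptide made by a small group of neurons in the lateral hypothalamus, and its loss produces narcolepsy with cataplexy. These neurons send axons to the whole cortex and to the monoamine and acetylcholine cell groups of the arousal system, and act through the receptors HCRTR1 and HCRTR2. Their cell bodies lie outside the cortex, which they reach only with their axons.

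Polyadenylated RNA was read as counts per gene, with 28698304 to 46001354 gene counts per library. Levels are given as CPM, gene counts relative to the TMM-scaled library total, and differences as log2 fold changes of transgenic over wild-type cortex with their standard error (SE). Every adjusted p is from edgeR's quasi-likelihood test with Benjamini-Hochberg adjustment over all tested genes, unless another tool is named, and a gene was called at an adjusted p under 0.05. Transgenic library 1 stood apart from the other 11 cortex libraries. Its root mean square log2 distance from their mean was 0.354, against 0.185 to 0.243 for the others. Protein-coding genes were sorted by exon length into 5 bins of about 2660 genes. In that library the bin of the shortest genes, 255 to 2690 bases, stood at a median of 0.26 log2 units from the cortex mean, and the bin of the longest, from 7935 bases, at -0.23. The difference between these bins was 0.49 in transgenic library 1 and between -0.08 and -0.01 in each of the other 11. Results are therefore also given without it, an alternative chosen with the data known for the gene lists.

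**Figure D1:**
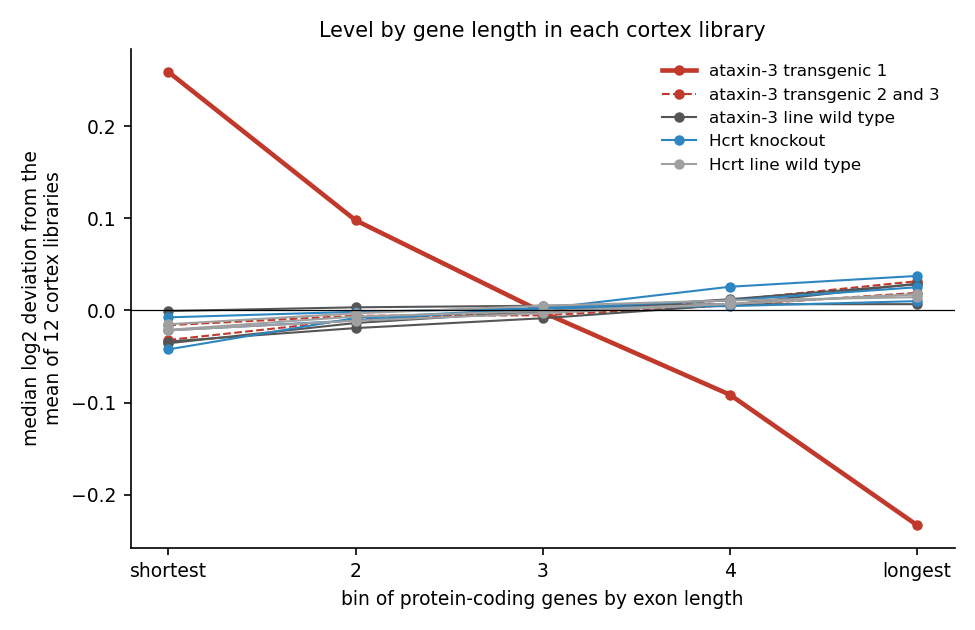
Median log2 deviation from the mean of the 12 cortex libraries (y axis) for protein-coding genes sorted into 5 bins by exon length (x axis), with 1 line per library. Transgenic library 1 runs from 0.26 in the bin of the shortest genes to -0.23 in that of the longest, while the other 11 lines stay near 0.

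No gene was called in transgenic cortex (0 of 16479, or 0%). At an unadjusted p under 0.05 there were 839 genes, 5.09% of those tested, of which 476 were higher (2.89%) and 363 lower (2.2%). Of all tested genes 51.4% had a log2 fold change above 0. In 742 genes (4.5%) all 3 transgenic libraries lay above all 3 wild-type libraries, and in another 742 (4.5%) they lay below. DESeq2 called 2 genes, voom with quality weights also 2, and edgeR with every gene kept, however low its counts, 1. Without transgenic library 1, edgeR called 3 of 16676 genes (0.018%), which were Cenpc1, B4galnt1 and Gm9770. In that fit 3.29% of genes had an unadjusted p under 0.05 and 50.8% had a log2 fold change above 0. The spread was small, with a biological coefficient of variation of 7.35%, and for 13273 genes (80.5%) the 95% interval of the change lay within 1.5-fold in either direction.

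**Figure D2:**
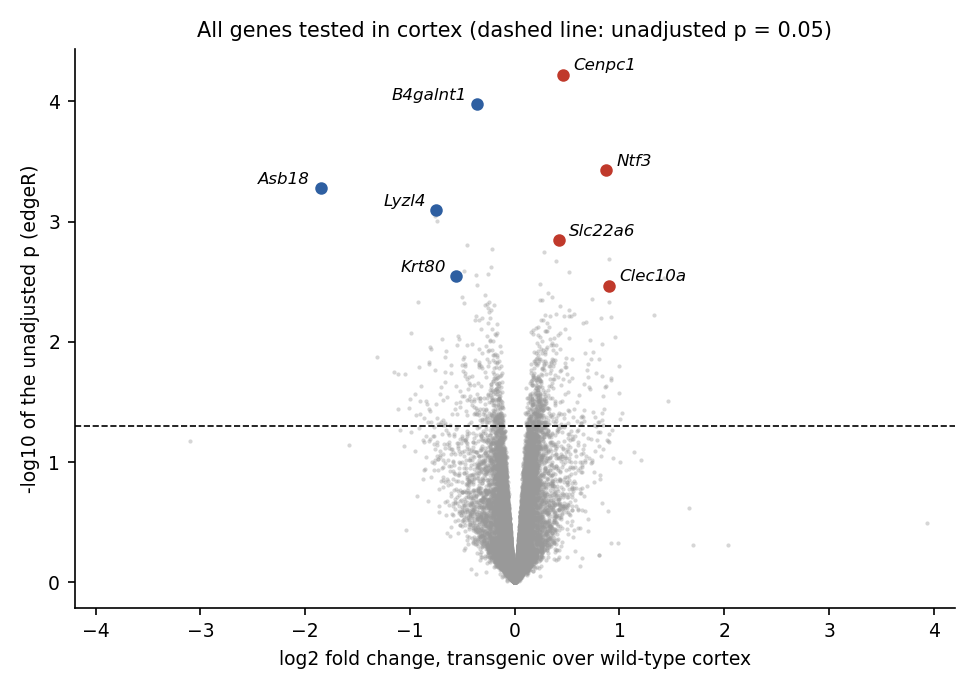
Log2 fold change of transgenic over wild-type cortex (x axis) against -log10 of the unadjusted edgeR p (y axis) for the 16479 tested genes. Cenpc1 and B4galnt1 have the smallest p on the higher and lower side, at 0.46 and -0.36.

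The pseudogene Gm9770 is shown first as sequence, because its reads must be told from those of a parent gene by very few bases. Gm9770 is a processed pseudogene, an intronless copy of a messenger RNA, at chr10:130412499-130413309 on the plus strand of GRCm38. Its transcript of 811 bases matched the Ctdsp2 transcript over its whole length in GENCODE M21, with 807 identical bases (99.5%), 3 substitutions and 1 inserted base, all within the coding part of Ctdsp2. Ctdsp2, a gene for a small phosphatase of the RNA polymerase II tail, lies on the same chromosome at chr10:126978717-126999975. The substitutions, with the Ctdsp2 base first and positions counted from 1 at the 5′ end of the Gm9770 transcript, are A93G, C219G and A411G. In the following lines, 25 bases around each are given on the sense strand and the capital marks the base that differs. The Gm9770 windows lie at chr10:130412579-130412603, chr10:130412705-130412729 and chr10:130412897-130412921.
Ctdsp2 at 93: ctcgcctaagaaAccccgtggccgc
Gm9770 at 93: ctcgcctaagaaGccccgtggccgc
Ctdsp2 at 219: caagtccgatctCctccagtgtctc
Gm9770 at 219: caagtccgatctGctccagtgtctc
Ctdsp2 at 411: cacgcaccaggtAtatgtgctcaag
Gm9770 at 411: cacgcaccaggtGtatgtgctcaag

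Gm9770 counts were low but separated the genotypes in every tissue of the line. The libraries held 9, 18 and 23 counts in transgenic cortex, against 3, 3 and 4 in wild-type cortex. Transgenic hypothalamus had 24, 16 and 23, against 1, 4 and 2 in its wild type, and transgenic brainstem had 11, 23 and 24, against 0, 1 and 1. The 9 transgenic libraries thus held 9 to 24 counts each, while the other 27 libraries of the series, the knockout line included, held 0 to 6. The default filter drops the gene. With no filter, its log2 fold change in cortex was 2.54 (SE 0.48, edgeR adjusted p = 0.067), so it did not pass with all libraries. It was 2.89 (SE 0.42) without transgenic library 1, the lowest of the 3. The gene then clears the filter only through the transgenic libraries, where it is high, so its call in that fit is no support for a difference. Reads that carry none of the differing bases fit both genes. Reads without a unique alignment, 16.1% to 19.2% of a cortex library of the line, were counted apart from the genes. How reads were placed between Gm9770 and Ctdsp2 was not checked, so this level is uncertain. Ctdsp2 itself had 90.2, 89.1 and 100.1 CPM in transgenic cortex, against 100.8, 92.1 and 96.3 CPM in wild type (-0.05, SE 0.06, edgeR adjusted p = 0.82). Its groups overlapped.

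Cenpc1, which encodes the centromere protein CENP-C that anchors the inner kinetochore to chromatin, had the smallest p of all tested genes. It lies at chr5:86012024-86065583 on the minus strand. Levels were 32.3, 38.1 and 38.9 CPM in transgenic cortex, against 26.3, 27.1 and 26.1 CPM in wild-type cortex. Each transgenic library lay above each wild type, and also above the 6 cortex libraries of the knockout line, since the 9 other cortex libraries ran from 25.4 to 31.9 CPM. Cenpc1 was picked for its p in these same libraries, so this is a description, beside 4.5% of all tested genes above and 4.5% below. The log2 fold change was 0.46 (SE 0.08), with an adjusted p of 0.751 in edgeR. It passed in DESeq2 (adjusted p = 0.0089), in voom with quality weights (adjusted p = 0.00021), in edgeR with no filter on low counts (adjusted p = 0.038) and in edgeR without transgenic library 1 (0.54, SE 0.07, adjusted p = 0.0018), and over all 13 alternatives the adjusted p ran from 0.00021 to 0.913. Removing any other single library gave log2 fold changes of 0.41 to 0.48.

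The same gene was higher in the other tissues of the line. Cenpc1 averaged 58.9 ± 2.83 CPM in transgenic hypothalamus and 38.9 ± 2.26 CPM in its wild type (SD, n = 3 each; 0.60, SE 0.09, edgeR adjusted p = 0.13), where Hcrt alone passed of 16738 genes (0.00597%). In brainstem it averaged 40.1 ± 0.65 CPM in transgenic and 27.1 ± 2.86 CPM in wild-type mice (0.56, SE 0.07), where it was the 1 called gene of 16493 (0.00606%; edgeR adjusted p = 0.014). Wild-type brainstem library 2 had the fewest gene counts of the series (21915540) and the most unassigned reads (41.97%). Its Cenpc1 level was 23.8 CPM, against 29.0 and 28.4 CPM in wild-type libraries 1 and 3. The groups did not overlap in any of the tissues. Of all tested genes, 4.5% in cortex, 5.21% in hypothalamus and 6.05% in brainstem lay above their wild types in the same way. The effect in cortex minus that in hypothalamus was -0.13 (SE 0.12) and minus that in brainstem -0.10 (SE 0.12), with edgeR adjusted p = 1 for both. Their 95% intervals ran from -0.37 to 0.10 and from -0.34 to 0.14. In knockout cortex Cenpc1 stood at 0.08 (SE 0.08), and the transgenic minus the knockout effect was 0.38 (SE 0.12, edgeR adjusted p = 0.93). Within 1 Mb of Cenpc1 only 2 other genes were tested, Uba6 (-0.07, SE 0.09), a ubiquitin-activating enzyme gene, and Ythdc1 (-0.04, SE 0.06), which encodes a reader of methylated adenosine in RNA. The processed pseudogene Gm13477, looked up as a copy of Cenpc1 though their sequences were not compared, held 1 count in wild-type library 3 and 0 in the other 5 libraries. Reads without a unique alignment are not in these counts.

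**Figure D3:**
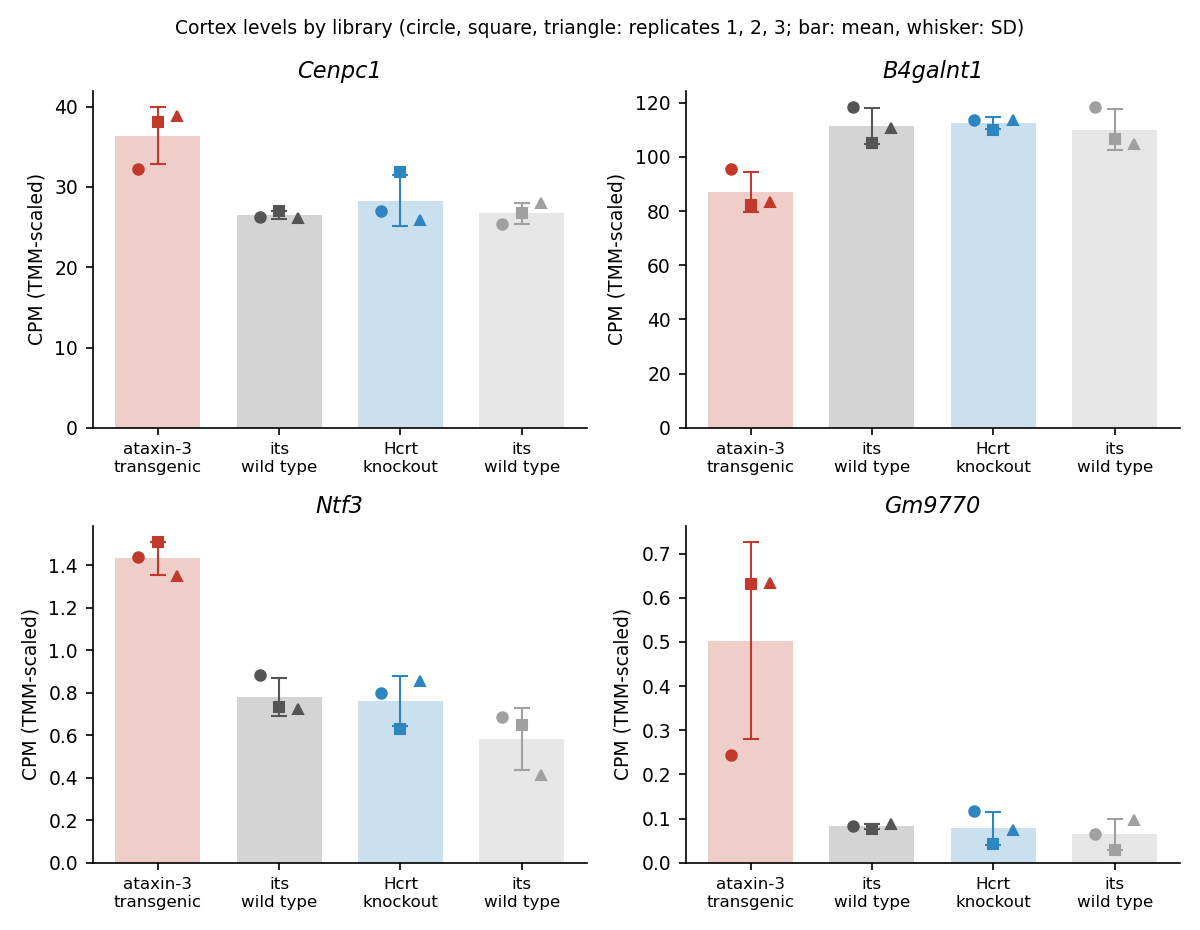
CPM of 4 genes in each of the 12 cortex libraries, with the mean (bar) and SD (whisker) of 3 libraries a group, ataxin-3 transgenic left of its wild type and Hcrt knockout left of its wild type. Transgenic libraries lie above every other cortex library for Cenpc1, Ntf3 and Gm9770 and below every other for B4galnt1. The 4 genes were picked from these same libraries, so this is a description.

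B4galnt1 encodes the GM2/GD2 synthase, which adds N-acetylgalactosamine to make the complex gangliosides of neuronal membranes, and it headed the lower side. It lies at chr10:127165225-127172330 on the plus strand. Levels were 95.5, 82.3 and 83.2 CPM in transgenic cortex, against 118.4, 105.1 and 110.7 CPM in wild-type cortex. The groups did not overlap, and the 9 other cortex libraries, knockout line included, ran from 104.8 to 118.6 CPM. B4galnt1 was picked for its p in these same libraries, so this is a description, beside 4.5% of all tested genes above and 4.5% below. The log2 fold change was -0.36 (SE 0.07, edgeR adjusted p = 0.751). It passed in DESeq2 (adjusted p = 0.0089), voom with quality weights (adjusted p = 0.00077) and edgeR without transgenic library 1 (-0.43, SE 0.05, adjusted p = 0.0018), and over the 13 alternatives the adjusted p ran from 0.00077 to 0.913.

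Unlike Cenpc1, B4galnt1 did not separate the genotypes outside the cortex. It averaged 64.2 ± 6.3 CPM in transgenic and 64.7 ± 5.63 CPM in wild-type hypothalamus (SD, n = 3 each; -0.01, SE 0.10), and 53.5 ± 1.21 CPM in transgenic and 57.9 ± 6.89 CPM in wild-type brainstem (-0.11, SE 0.07). Wild-type brainstem library 2, with the most unassigned reads of the series, held 65.8 CPM, against 53.6 and 54.1 CPM in wild-type libraries 1 and 3. The difference between tissues itself did not pass, at -0.34 (SE 0.12, edgeR adjusted p = 0.90) for cortex minus hypothalamus and -0.25 (SE 0.12, edgeR adjusted p = 1) for cortex minus brainstem. Knockout cortex stood at 0.03 (SE 0.07). Of the 15 ganglioside synthesis genes, 6 were higher and 9 lower with a median of -0.03, and B4galnt1 alone had an unadjusted p under 0.05. St8sia1, the GD3 synthase gene upstream of it, had 48.4, 71.1 and 69.2 CPM in transgenic cortex, against 70.0, 72.7 and 68.9 CPM in wild type, where only transgenic library 1 stood low. St6galnac3 (-0.22, SE 0.15) and St8sia3 (-0.09, SE 0.07), both sialyltransferase genes, overlapped between the groups.

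Both B4galnt1 and Gm9770 lie on chromosome 10, so the genes around B4galnt1 were counted. Ormdl2 and Ppm1h, also among the genes with the smallest p, lie on that chromosome too, beyond 1 Mb of B4galnt1. Cenpc1, Cgref1, Srrd and Slit2, likewise among them, lie on chromosome 5. The share of all tested genes on either chromosome was not counted, so these positions are a description. Within 1 Mb, 45 other genes were tested, 26 higher and 19 lower with a median of 0.03. None was called, and 6 of the 45 had an unadjusted p under 0.05, 3 in each direction. Over all tested genes 839 of 16479 (5.09%) did, and the larger share near B4galnt1 was not tested. The smallest p belonged to Gpr182 (0.43, SE 0.14), which encodes a receptor of endothelial cells, followed by Pip4k2c (-0.13, SE 0.05), a phosphoinositide kinase gene, and Prim1 (0.29, SE 0.10), the DNA primase subunit gene. All 3 separated the genotypes, but they were picked for their p in these same libraries, so this is a description. Over all tested genes 4.5% lay above and 4.5% below. None of these 3 passed, each at an edgeR adjusted p of 0.751. Without transgenic library 1 the log2 fold changes of neighbours moved either way. Gpr182 stood at 0.28 (SE 0.15) and Prim1 at 0.24, and the neighbour Kif5a went from -0.18 to -0.10. Pip4k2c stood at -0.15, and the neighbour Arhgef25 went from -0.13 to -0.24. How many of the 45 grew or shrank in that fit was not counted.

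Ntf3 encodes neurotrophin-3, a growth factor acting through the TrkC receptor. It had 1.44, 1.51 and 1.35 CPM (43 to 53 counts) in transgenic cortex, against 0.885, 0.733 and 0.725 CPM in wild type. The 9 other cortex libraries ran from 0.415 to 0.885 CPM, all below the transgenic ones. Ntf3 too was picked for its p, so this is a description, beside 4.5% of all tested genes above and 4.5% below. The log2 fold change was 0.88 (SE 0.19, edgeR adjusted p = 0.751), and it passed under none of the 13 alternatives (adjusted p of 0.305 to 0.965). It stood at 0.20 (SE 0.50) in hypothalamus, -0.12 (SE 0.68) in brainstem and 0.42 (SE 0.23) in knockout cortex. Of the 12 tested neurotrophin and receptor genes 5 were higher and 7 lower, with a median of -0.09. Gfra1, a GDNF receptor gene, had 32.9, 37.0 and 34.3 CPM in transgenic cortex, against 38.4, 38.6 and 39.4 CPM in wild type (-0.16, SE 0.07). Sort1, the sortilin gene, stood at -0.15 (SE 0.07), and at -0.06 (SE 0.04) without transgenic library 1.

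The remaining genes with the smallest p did not pass either, each at an edgeR adjusted p of 0.751, and were picked for that p, so their separation between groups is a description. On the higher side were Slc22a6 (0.42, SE 0.11), an organic anion transporter gene of the meninges, Gsto1 (0.28, SE 0.07), a glutathione transferase gene, and Cgref1 (0.40, SE 0.11). Slc22a6 had 9.21, 7.78 and 9.62 CPM in transgenic cortex, against 6.80, 7.56 and 5.63 CPM in wild type. Also higher were Pcbd2 (0.52, SE 0.14), Kat8 (0.24, SE 0.07), which encodes a histone H4 acetyltransferase, Srrd (0.32, SE 0.09), Ormdl2 (0.35, SE 0.10), a regulator of sphingolipid synthesis, and Clec10a (0.90, SE 0.26), a lectin gene of macrophages with under 1 CPM. Cgref1 stood at 0.22 (SE 0.07) and Pcbd2 at 0.34 (SE 0.13) without transgenic library 1.

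On the lower side, Slit2 encodes a secreted axon guidance ligand of Robo receptors. It had 30.4, 42.8 and 42.7 CPM in transgenic cortex, against 50.5, 51.7 and 47.2 CPM in wild type (-0.37, SE 0.10), and -0.22 (SE 0.06) without transgenic library 1. Ppm1h (-0.21, SE 0.06), a phosphatase gene on chromosome 10, and Scube1 (-0.22, SE 0.06), a gene for a secreted and membrane-bound glycoprotein, were the more abundant of the rest. Scube1 stood at -0.26 (SE 0.06, edgeR adjusted p = 0.41) in knockout cortex. Il17ra, the interleukin-17 receptor gene, had 22.2, 19.3 and 20.2 CPM in transgenic cortex, against 25.1, 22.9 and 25.6 CPM in wild type (-0.25, SE 0.07). Asb18 (-1.85, SE 0.42), Lyzl4 (-0.75, SE 0.18) and Krt80 (-0.56, SE 0.16), a keratin gene, completed the list, with Asb18 at under 0.5 CPM in every cortex library.

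The 18 named genes, 10 higher and 8 lower, were also looked up elsewhere. In hypothalamus 3 lay on the same side as in cortex (Cenpc1, Slc22a6 and Ppm1h), 1 on the opposite side (Il17ra) and 14 overlapped. Over all tested genes of hypothalamus, 5.21% had all 3 transgenic libraries above all 3 wild types and 4.7% below. In brainstem 3 lay on the same side (Cenpc1, Kat8 and Ppm1h), 1 on the opposite side (Il17ra) and 14 overlapped, where 6.05% of all genes lay above and 6.01% below. In knockout cortex against its own wild type 5 lay on the same side (Slc22a6, Kat8, Ormdl2, Scube1 and Slit2), 0 on the opposite side and 13 overlapped, where 5.12% of all genes lay above and 5.6% below. Across all genes, the transgenic effect in cortex minus that in hypothalamus passed for 0 of 17744 genes (0%), with 839 (4.73%) at an unadjusted p under 0.05. The effect in cortex minus that in brainstem also passed for 0 of 17744 (0%), with 510 (2.87%) at an unadjusted p under 0.05. DESeq2 called 1 and 7 genes for these contrasts, and voom with quality weights 1 and 3.

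**Figure D4:**
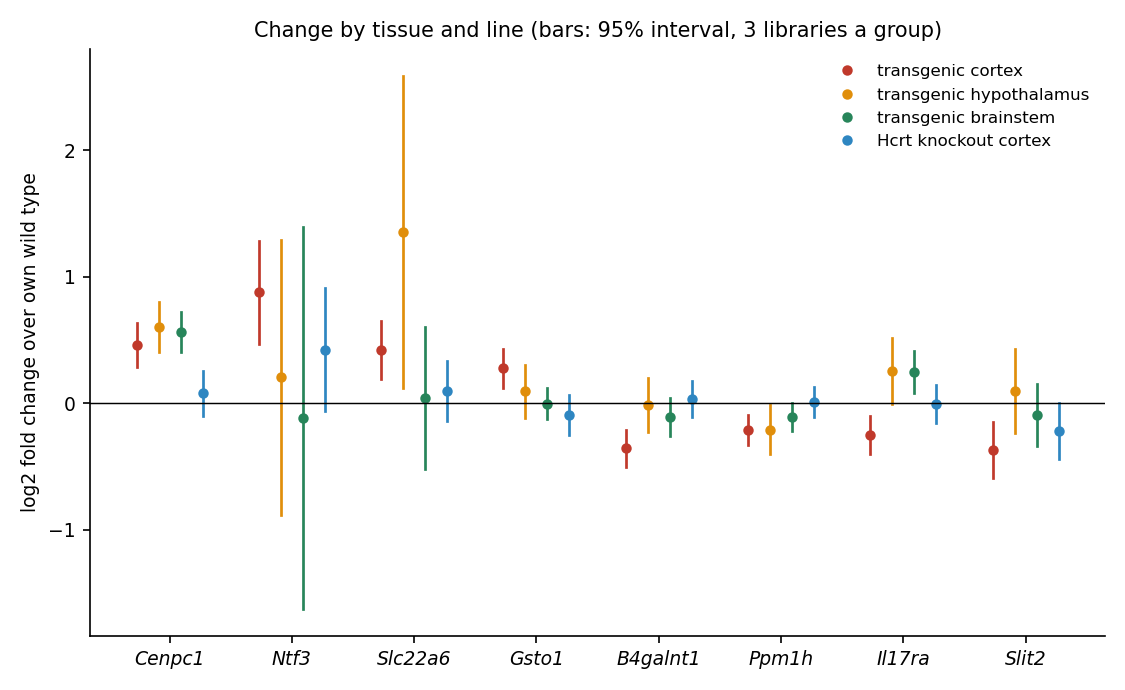
Log2 fold change over the own wild type (y axis, dots) with its 95% interval (bars) for 8 genes in transgenic cortex, hypothalamus and brainstem and in Hcrt knockout cortex, 3 libraries a group. Cenpc1 stands between 0.46 and 0.60 in all 3 transgenic tissues and at 0.08 in knockout cortex, while Il17ra is below 0 in transgenic cortex and above 0 in the other transgenic tissues.

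No gene of the ablated cells passed in cortex, where most are also expressed by other neurons. Hcrt, the hypocretin precursor gene, held 2 counts in each transgenic library, against 3, 1 and 2 in the wild types, at or under the limit of 3 counts that a count of 0 allows. Atxn3, the mouse counterpart of the transgene, had 41.6, 48.2 and 47.3 CPM in transgenic cortex, against 41.4, 46.7 and 44.1 CPM in wild type (0.05, SE 0.07, edgeR adjusted p = 0.82). Prm1, a protamine gene of sperm named after its values were seen, had 0 counts in every transgenic and wild-type cortex library of the line, while transgenic hypothalamus held 23, 22 and 38 and its wild type 0 in each. Of the 10 genes of hypocretin neurons 8 were tested, 4 higher and 4 lower with a median of 0.00. These were Pdyn (0.02), Igfbp3 (0.08), Lhx9 (0.34), Slc17a6 (0.00), Nptx2 (-0.10), Dlk1 (0.00), Scg2 (-0.01) and Ebf2 (-0.42), with SEs of 0.06 to 0.37 and overlapping groups in each. Gal and Qrfp, at or near 0 counts, were not tested.

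The receptors for the peptide did not pass either. Hcrtr1 had 2.74, 2.17 and 1.90 CPM in transgenic cortex, against 2.16, 2.02 and 2.29 CPM in wild type (0.08, SE 0.14, 95% interval -0.21 to 0.37). Hcrtr2 had 2.64, 2.87 and 2.90 CPM in transgenic cortex, against 2.43, 3.03 and 2.37 CPM in wild type (0.10, SE 0.13, 95% interval -0.17 to 0.37). The edgeR adjusted p was 0.862 for Hcrtr1 and 0.818 for Hcrtr2, and the groups overlapped for both.

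The receptors for the arousal transmitters were mixed. Of 26 tested histamine, noradrenaline, dopamine and serotonin receptor genes 12 were higher and 14 lower, with a median of -0.01 beside 0.00 over all tested genes. An unadjusted p under 0.05 was reached by 2 higher and 2 lower genes. Adra1d, the alpha-1D adrenoceptor gene, had 19.4, 20.99 and 20.7 CPM in transgenic cortex, against 26.1, 23.2 and 22.2 CPM in wild type (-0.23, SE 0.07). Adra2a, the alpha-2A adrenoceptor gene, stood at 0.23 (SE 0.09). The groups did not overlap for Adra1d or Adra2a, named for their small p, beside 4.5% of all tested genes above and 4.5% below. Hrh2, the histamine H2 receptor gene, stood at -0.33 (SE 0.14) with overlapping groups, and at -0.17 (SE 0.11) without transgenic library 1. Of 13 tested acetylcholine receptor genes 1 was higher and 12 lower, with a median of -0.20. Among them Chrm3, the M3 muscarinic receptor gene, stood at -0.22 (SE 0.09), and Chrnb3, a nicotinic subunit gene, at -0.27 (SE 0.12). Without transgenic library 1, 3 of 14 were higher, the median was -0.08 and Chrm3 stood at -0.11 (SE 0.07).

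Most genes of the potassium channel, transmitter receptor subunit, vesicle release and excitatory neuron lists were lower, and those of the interneuron list higher, none of them called. Of 41 potassium channel genes 9 were higher and 32 lower (median -0.07), and without that library 17 and 24 (median -0.02). For GABA and glutamate receptor subunits 9 of 36 were higher, and 16 of 36 without it. For synaptic vesicle release genes the counts were 7 of 25 and 5 of 25 without it, with medians of -0.05 and -0.03. Markers of cortical excitatory neurons were higher in 5 of 20 (median -0.07), and in 6 of 20 without it (median -0.05). Their summed level was 2462, 2500 and 2468 CPM in transgenic cortex, against 2596, 2548 and 2553 CPM in wild type, without overlap. How many of the list sums separate the groups was not counted. Cux2, a transcription factor of upper cortical layers, had 121, 126 and 132 CPM in transgenic cortex, against 133, 136 and 143 CPM in wild type (-0.12, SE 0.05). Interneuron markers were higher in 15 of 19 (median 0.08), and in 12 of 19 without it (median 0.05). In bulk tissue fewer cells of a type and less RNA per cell cannot be told apart.

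Activity and clock genes gave no called member. Of 25 immediate early genes 12 were higher and 13 lower, and without transgenic library 1, 5 and 20, with medians of -0.01 and -0.04. Homer1, whose short form is induced by synaptic activity, had 164, 206 and 202 CPM in transgenic cortex, against 230, 222 and 232 CPM in wild type (-0.26, SE 0.08), and stood at -0.16 (SE 0.05) without that library. Egr3, an activity-induced transcription factor gene, had 38.5, 54.5 and 56.5 CPM in transgenic cortex, against 66.9, 54.3 and 60.6 CPM in wild type (-0.28, SE 0.14), and stood at -0.13 (SE 0.11) without that library. Of 23 circadian clock genes 11 were higher and 12 lower with a median of 0.00. Ciart (0.18, SE 0.07) and Dbp (0.18, SE 0.07), both clock-controlled genes, had an unadjusted p under 0.05. Without transgenic library 1 they stood at 0.15 (SE 0.07) and 0.10 (SE 0.05).

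The list with the most members at an unadjusted p under 0.05 was that of the ribosomal proteins, most of them short genes. All 38 listed cytosolic ribosomal protein genes were higher, 13 of them at an unadjusted p under 0.05, with a median of 0.24. Their summed level was 5496, 3862 and 3912 CPM in transgenic cortex, against 3797, 3761 and 3820 CPM in wild type, and the 11 cortex libraries other than transgenic library 1 ran from 3722 to 3919 CPM. Without that library 32 of 38 were higher, 1 had an unadjusted p under 0.05 and the median was 0.04. Rpl7 showed the pattern, with 163, 134 and 130 CPM in transgenic cortex, against 122, 123 and 122 CPM in wild type (0.22, SE 0.07, and 0.11, SE 0.04, without it). Blood genes were higher in 6 of 6 and without it in 1 of 7, microglia markers in 13 of 16 and 4 of 16, and ubiquitin-proteasome partners of ataxin-3 in 13 of 17 and 9 of 17.

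Endoplasmic reticulum chaperone and stress genes were higher in 16 of 20, with 5 at an unadjusted p under 0.05 and a median of 0.11. Without transgenic library 1 they were higher in 15 of 20, again with 5, and the median was 0.05. Manf (0.21, SE 0.07), a secreted factor of this compartment, and Atf4 (0.20, SE 0.07), a transcription factor of the integrated stress response, were among them. Hspa5, the gene for the chaperone BiP, had 252, 239 and 243 CPM in transgenic cortex, against 231, 212 and 220 CPM in wild type (0.14, SE 0.06). Pdia3, a disulfide isomerase gene, stood at 0.14 (SE 0.06). The groups did not overlap for Atf4, Hspa5 or Pdia3, which were named for their small p, so this is a description. Over all tested genes 4.5% lay above and 4.5% below. Leaving out transgenic library 1 put Atf4 at 0.09 (SE 0.04) and Pdia3 at 0.08 (SE 0.04).

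Centromere and kinetochore genes, the class of Cenpc1, were higher in 15 of 24 with a median of 0.11. Apart from Cenpc1, Cenpt (0.24, SE 0.09), a kinetochore scaffold gene, and Cenpv (0.24, SE 0.09) had an unadjusted p under 0.05. Without transgenic library 1 they stood at 0.16 (SE 0.08) and 0.11 (SE 0.07).

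Markers of tissue at the border of the cortex also differed between libraries, and their part in the other results was not tested. Meningeal fibroblast markers were higher in 17 of 17, with 5 at an unadjusted p under 0.05 and a median of 0.16, and without transgenic library 1 in 14 of 17, with 3 and a median of 0.11. Their summed level was 999, 735 and 829 CPM in transgenic cortex, against 783, 724 and 654 CPM in wild type, and none of the 17 was at 0. Most of that sum came from Ptgds, with 683.5, 457.1 and 515.5 CPM in transgenic cortex, against 490.3, 442.7 and 385.9 CPM in wild type. Dcn, the decorin gene, had 15.4, 14.5 and 15.6 CPM in transgenic cortex, against 14.2, 10.6 and 11.1 CPM in wild type (0.35, SE 0.13). Col6a2 (0.22, SE 0.07), a collagen gene, and Ptgds (0.33, SE 0.12), the prostaglandin D synthase gene, had an unadjusted p under 0.05 but overlapped between the groups. Ptgds stood at 0.15 (SE 0.08) without transgenic library 1. Slc22a6, named among the smallest p, belongs to this list.

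Choroid plexus markers were lower in 11 of 11, with a median of -0.38, but varied within both groups. Their summed level was 12.5, 16.3 and 77.6 CPM in transgenic cortex, against 76.5, 100.8 and 14.8 CPM in wild type. Ttr, the transthyretin gene that marks this tissue, had 5.60, 5.64 and 56.6 CPM in transgenic cortex, against 58.6, 76.2 and 6.66 CPM in wild type (-1.04, SE 1.09). Without transgenic library 1, 5 of 11 were higher and the median was 0.00. Hypothalamic neuron markers summed to 12.9, 11.1 and 12.6 CPM in transgenic cortex, against 9.01, 9.30 and 7.67 CPM in wild type. Most of that sum came from Cartpt and Trh, which averaged 5.55 and 2.80 CPM in transgenic cortex and 4.37 and 1.29 CPM in wild type. Of these 16 markers 8 were tested, and 7 were higher, with a median of 0.28. Without transgenic library 1, 9 of 9 were higher and the median was 0.30. Cartpt, a neuropeptide gene also of cortical neurons, stood at 0.35 (SE 0.13), or 0.22 (SE 0.13) without transgenic library 1. Trh, the thyrotropin-releasing hormone gene, had 3.07, 2.24 and 3.09 CPM in transgenic cortex, against 1.63, 1.34 and 0.901 CPM in wild type (1.14, SE 0.59). Olfactory bulb markers summed to 33.5, 20.99 and 31.4 CPM in transgenic cortex, against 18.6, 25.2 and 18.6 CPM in wild type, with 7 of 8 higher and a median of 0.47, and without transgenic library 1 again 7 of 8 and a median of 0.245.

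Among markers of neighbouring regions, hippocampal neuron genes were higher in 9 of 11 (median 0.12), thalamic in 6 of 9 (0.05), striatal projection neuron genes in 5 of 14 (-0.07) and genes of ciliated ependymal cells in 3 of 9 (-0.18). Without transgenic library 1 these were 10 of 11 (0.17), 9 of 9 (0.06), 6 of 14 (-0.04) and 2 of 9 (-0.08), in the same order. Mature oligodendrocyte markers were higher in 2 of 15 (median -0.07), and in 1 of 15 without transgenic library 1. Astrocyte markers were higher in 9 of 15 (0.01), or 6 of 15 without that library, endothelial and pericyte markers in 10 of 16 (0.01) and oligodendrocyte precursor markers in 5 of 11 (0.00). Complement and antigen presentation genes were higher in 14 of 18 (0.11), and without transgenic library 1 in 9 of 18 (0.03). Within them H2-Aa, a class II histocompatibility gene, had 1.85, 1.05 and 1.49 CPM in transgenic cortex, against 0.857, 1.04 and 0.769 CPM in wild type (0.74, SE 0.22). Interferon-stimulated genes were higher in 10 of 19, cytosolic heat shock genes in 12 of 16, adenosine system genes in 5 of 11, glucocorticoid-induced genes in 8 of 16, ataxins and Josephin deubiquitinases in 5 of 12 and mitochondrial genome transcripts in 4 of 7, each with a median between -0.04 and 0.03. When that library was left out, the interferon-stimulated genes were higher in 6 of 19, the heat shock genes in 7 of 16, the ataxins and Josephin deubiquitinases in 7 of 12 and the mitochondrial transcripts in 6 of 7.

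**Figure D5:**
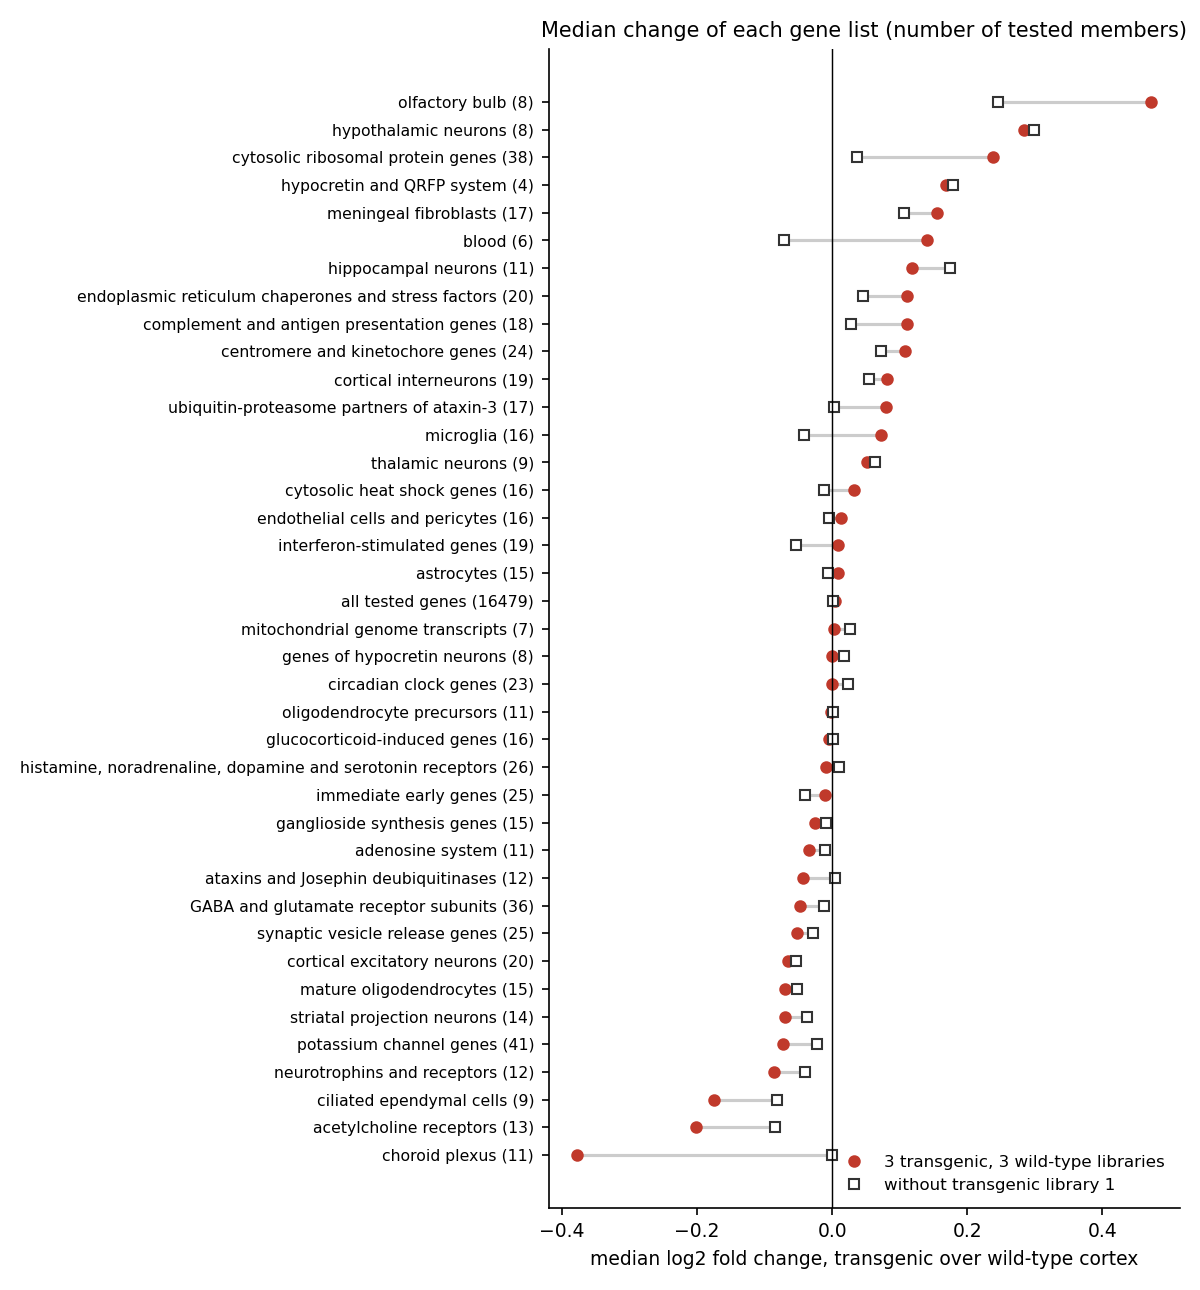
Median log2 fold change of transgenic over wild-type cortex (x axis) for each of the 38 gene lists and for all tested genes, sorted by that median, with the number of tested members in brackets. Filled circles use all 6 libraries and open squares leave out transgenic library 1, and the ribosomal protein median is 0.24 with it and 0.04 without it.

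The comparison with knockout cortex sets loss of the cells beside loss of the peptide gene, and it shares no control library. The transgenic minus the knockout effect passed for 4 of 16479 genes (0.0243%), and 3.13% had an unadjusted p under 0.05. The 4 that passed were A830036E02Rik, Krt12, Kcnh4 and Ghdc, all on chromosome 11, the chromosome of Hcrt. In knockout cortex against its own wild type 13 genes were called (0.0789%). In transgenic cortex A830036E02Rik, Krt12, Kcnh4 and Ghdc stood at 0.02, 0.09, -0.05 and 0.01, and in knockout cortex at -6.22, -2.06, -1.40 and -1.07. A830036E02Rik had 112, 114 and 123 CPM in transgenic cortex, against 105, 119 and 120 CPM in its wild type.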

How the data were processed

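Per the labels, RNA was extracted with a lipid tissue kit and made into stranded mRNA libraries. The authors deposited raw counts per gene, 1 table per library with 38924 genes. Per the submitters' processing notes, cutadapt 1.2.1, TopHat2 2.0.9 and HTSeq 0.5.4p3 were used with GRCm38. No source used here gives the strand setting, overlap mode or annotation release of the counting, so overlapping and antisense genes are uncertain. The 5 lines of unassigned reads, 29.4% to 30.9% of a cortex library of the line, were left out. Symbols and positions came from GENCODE M21, which matched 37607 identifiers.

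Differences were tested in R 4.3.3 with edgeR 4.0.16 (TMM, default expression filter by group with a minimum count of 10, robust quasi-likelihood fit). The 12 cortex libraries entered 1 fit, so that 4 groups shared the estimate of spread. Differences between tissues came from a fit of all 36 libraries. The SE, approximate at low counts, was derived by dividing the size of the log2 fold change by the root of its F statistic. The fit was run on simulated cortex counts with 100 genes changed 1.5-fold and 100 changed 2-fold. It recovered 71% and 85% of them, and 16 of its 172 calls were false. The simulated libraries had no dependence on gene length, so they do not cover the pattern of transgenic library 1. The alternatives were DESeq2 1.42.0, voom with quality weights (limma 3.58.1), a replicate block, leaving out each library, a fit of the 6 libraries alone, relative log expression factors, no filter and a filter keeping genes above 1 CPM in 3 or more libraries. A count of 0 allows up to 3 counts, a limit for counting error only, because PCR copies were not marked and reads may repeat a molecule.

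Genes were named by rule: for want of called genes, the 12 of smallest p on each side, without predicted genes and pseudogenes beyond the first 3, genes called by an alternative, hypocretin neuron genes, up to 4 members with the smallest p of each of 38 lists and the 3 nearest genes by p. Gm9770 in full, Ctdsp2, Gm13477 and Prm1 were named after values were seen. The members and lists were chosen with earlier results of these data known.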

Additional observations from a re-analysis of the deposited data

Results flagged for a closer look

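The transgenic and the knockout effect in cortex differed past the edgeR threshold for 4 genes. The transgenic minus the knockout log2 fold change was 6.24 for A830036E02Rik (SE 0.12, edgeR adjusted p = 4.9e-14), 2.15 for Krt12 (SE 0.16, edgeR adjusted p = 1.3e-05), 1.35 for Kcnh4 (SE 0.11, edgeR adjusted p = 2.6e-05) and 1.08 for Ghdc (SE 0.13, edgeR adjusted p = 0.0021). Within the transgenic comparison the log2 fold changes of A830036E02Rik, Krt12, Kcnh4 and Ghdc were 0.02, 0.09, -0.05 and 0.01, and in knockout cortex they were -6.22, -2.06, -1.40 and -1.07.

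Il17ra lay below its wild type in all 3 transgenic libraries of cortex and above it in all 3 of hypothalamus and of brainstem. The transgenic effect on Il17ra in cortex minus that in hypothalamus was -0.49 (SE 0.12, edgeR adjusted p = 0.89), and minus that in brainstem -0.50 (SE 0.11, edgeR adjusted p = 0.51). Neither difference passed its test.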

How the results depend on the processing

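The count of 0 called genes in cortex became 1 with no filter (Cenpc1), 2 in DESeq2 and 2 in voom with quality weights (Cenpc1 and B4galnt1 in both), and leaving out a library gave 0 to 3, the 3 without transgenic library 1. It stayed at 0 under the other settings. The 4 genes called for the transgenic minus the knockout effect became 8 in DESeq2, 11 in voom and 6 without transgenic library 1. They stayed at 4 under the other settings run for this contrast. For cortex minus hypothalamus 0 became 1 in DESeq2 and 1 in voom, and for cortex minus brainstem 0 became 7 in DESeq2 and 3 in voom. The cause of these differences was not tested.

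Whether replicate numbers pair the samples is not stated. The deviations of same-numbered transgenic and wild-type libraries correlated at 0.09, 0.01 and -0.13. Differently numbered ones ran from -0.143 to 0.185, so these values cannot decide the pairing. The replicate block called 0 genes for the transgenic effect and 4 for the transgenic minus the knockout effect, and moved the genes at an unadjusted p under 0.05 to 994, against 839. In the fit of all tissues the block instead joined libraries of a line with the same title number, as if from the same animal. That fit called 0 genes for cortex minus hypothalamus and 0 for cortex minus brainstem. No label says that such libraries share an animal.

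Named genes whose log2 fold change in cortex changed sign were few, and none of them passed in edgeR with all libraries. In voom they were Dlk1 (0.399), Hcrtr1 (-0.0831), Pdyn (-0.057) and Uba6 (0.021), and with the block Dlk1 (0.00195). Leaving out a library gave -0.45 to 0.311 for Dlk1, -0.0518 to 0.691 for Hcrt, -0.0896 to 0.199 for Hcrtr1, -0.00825 to 0.661 for Lhx9, -0.0702 to 0.0733 for Pdyn, -0.0403 to 0.0194 for Scg2, -0.0629 to 0.0595 for Slc17a6, -0.139 to 0.0391 for Uba6 and -0.0818 to 0.00603 for Ythdc1. For Hcrt, with 1 to 3 counts in each library compared, a difference was not detectable at this depth.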
